A study of Nothobranchius furzeri with 3 samples.

Results

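The skin of the turquoise killifish, Nothobranchius furzeri, was examined for 9 miRNAs that are known mainly from nervous tissue. They are nfu-mir-124, nfu-mir-9, nfu-mir-128, nfu-mir-132, nfu-mir-132b, nfu-mir-138 and nfu-mir-218, known from neurons, and nfu-mir-219 and nfu-mir-338, known from myelinating glia, and are written without the species prefix hereafter. They were chosen by name, with earlier results of these data known, as 9 of the 324 features of the count table, of which 235 carry a miRNA name. All 3 libraries were made from skin of males of the strain MZM-04/10p aged 39 weeks, with no treatment named, and form 1 group called libraries 1, 2 and 3. No second age, tissue or treatment is described, so no condition was compared, and since the labels do not say whether the libraries stem from separate fish, p-values measure only the spread between these samples, which may be technical.

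Skin holds the endings of sensory nerves, the Schwann cells that wrap peripheral axons, and pigment cells, which come from the neural crest as Schwann cells do. The cell bodies of its sensory neurons lie outside the tissue. A miRNA silences transcripts that pair with its seed, and miRNAs named for brain can also be made by other cells, so the level of one miRNA does not count nerve cells. In bulk tissue, fewer cells of a type and less RNA per cell cannot be told apart.

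The libraries held 5021238, 8545292 and 9590428 counts for libraries 1, 2 and 3. Levels are given as counts per 1000000 counts of the library (CPM) or as percent of all counts. A single count equals 0.199, 0.117 and 0.104 CPM, and a count of 0 would allow up to 3 counts, or 0.597, 0.351 and 0.313 CPM. Intervals are 95% exact binomial (Clopper-Pearson) intervals. Intervals and these limits cover counting error only, since reads without molecular identifiers may include PCR copies. Errors marked SD are over the 3 libraries. The epidermal mir-205 was present in every library at 57164, 64698 and 77087 CPM.

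The 9 miRNAs together took 0.524%, 0.822% and 0.712% of counts in libraries 1, 2 and 3, a mean of 0.686% ± 0.150 (SD, n = 3). They were unequal by orders of magnitude: mir-338 alone made up 72.2%, 69.6% and 61.1% of their counts, and mir-128 made up 19.6%, 24.5% and 31.9%. The 7 others together took 0.0428%, 0.0488% and 0.0502% of all counts. Detection, meaning at least 10 counts in every library, was met by 8 of the 9, against 44.1% of all features and 57.4% of features with a miRNA name. Only mir-219 missed it. All 9 had at least 1 count in every library, against 61.7% of all features and 73.6% of features with a miRNA name. The 9 were chosen with earlier results of these data known, so these shares are descriptions.

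**Figure D1:**
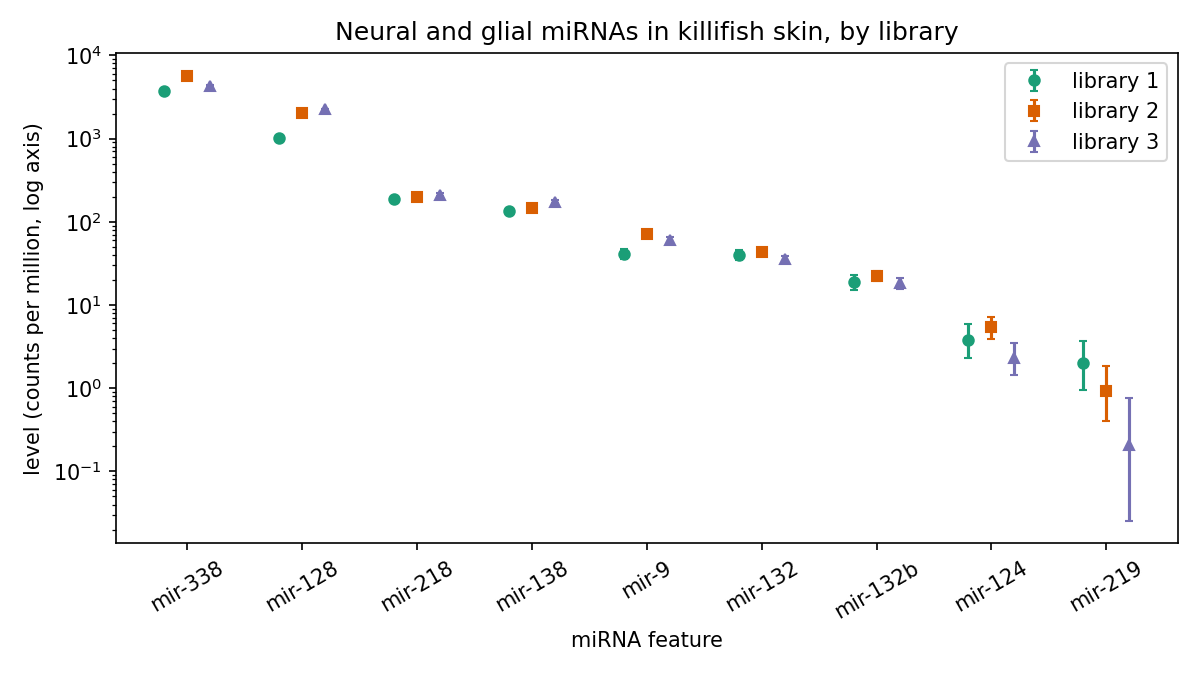
Level of each of the 9 miRNAs in CPM on a log axis, 1 point per library, with 95% exact binomial intervals as bars. mir-338 (3784 to 5717 CPM) and mir-128 (1027 to 2270 CPM) lie far above mir-124 (2.29 to 5.38 CPM) and mir-219 (0.209 to 1.99 CPM).

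Among the glial miRNAs, mir-338 and mir-219 are both known for driving oligodendrocyte maturation in the central nervous system of mammals. mir-338 lies within an intron of AATK, a kinase gene active in nervous tissue, in mammals. It had 19002, 48854 and 41684 counts, equal to 3784 (3731 to 3838), 5717 (5667 to 5768) and 4346 (4305 to 4388) CPM, and ranked 23, 18 and 23 among all features. Library 2 was the highest by a margin well outside the counting intervals.

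mir-219 had 10, 8 and 2 counts, equal to 1.99 (0.955 to 3.66), 0.936 (0.404 to 1.84) and 0.209 (0.0253 to 0.753) CPM. It was highest in library 1 and lowest in library 3, and its interval in library 3 lies below that in library 1 but overlaps that in library 2. The count in library 3 was under the limit that a count of 0 allows. The pair thus stood far apart: mir-338 had 1900 (1033 to 3963), 6107 (3099 to 14146) and 20842 (5769 to 172105) times the counts of mir-219. On the CPM scale library 1 held the most mir-219 and the least mir-338, while library 2 exceeded library 3 for both. With DESeq2 size factors library 3 was lowest for both.

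Among the neuronal miRNAs, mir-128, which is enriched in brain and tempers the excitability of neurons in mice, led at 5159, 17179 and 21772 counts. These equal 1027 (999.6 to 1056), 2010 (1980.4 to 2041) and 2270.2 (2240.2 to 2301) CPM, at ranks 39, 34 and 34. Library 1 held less than either of the others, which differed from each other by much less.

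mir-218, which lies in introns of the axon guidance genes SLIT2 and SLIT3 and is known from motor neurons, had 940, 1709 and 2020 counts. It was at 187 (175 to 199.6), 199.99 (191 to 210) and 211 (202 to 220.0) CPM, at ranks 65, 68 and 64. mir-138, known for limiting the size of dendritic spines in rat neurons, had 682, 1238 and 1673 counts, or 136 (126 to 146), 145 (136.9 to 153.2) and 174 (166 to 183) CPM, at ranks 68, 73 and 68. The SD was 5.89% of the mean for mir-218 and 13.3% for mir-138. For the others it was 10.9% (mir-132), 11.2% (mir-132b), 21.5% (mir-338), 26.2% (mir-9), 37.0% (mir-128), 40.4% (mir-124) and 85.8% (mir-219).

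mir-9, which guides the exit of neural progenitors from division, had 206, 603 and 582 counts. It was at 41.0 (35.6 to 47.0), 70.6 (65.0 to 76.4) and 60.7 (55.9 to 65.8) CPM, at ranks 88, 85 and 87. Library 1 was again the lowest, with an interval below those of libraries 2 and 3.

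mir-132 is induced by neuronal activity through the factor CREB, and mir-132b is a second feature of that name in the table. mir-132 had 199, 375 and 338 counts, or 39.6 (34.3 to 45.5), 43.9 (39.6 to 48.6) and 35.2 (31.6 to 39.2) CPM. mir-132b had 94, 191 and 176 counts, or 18.7 (15.1 to 22.9), 22.4 (19.3 to 25.8) and 18.4 (15.7 to 21.3) CPM. The ratio of the pair was nearly constant at 2.12 (1.65 to 2.74), 1.96 (1.65 to 2.35) and 1.92 (1.60 to 2.32). How reads that fit both names were counted is not given in the sources used here, so these levels are uncertain where reads were shared.

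mir-124, the miRNA most closely tied to neuronal identity, had 19, 46 and 22 counts. It was at 3.78 (2.28 to 5.91), 5.38 (3.94 to 7.18) and 2.29 (1.44 to 3.47) CPM, at rank 133 in libraries 1 and 2 and lower still in library 3. Library 2 was the highest, and its interval lay above that of library 3 and overlapped that of library 1.

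The order of mean CPM was mir-338, mir-128, mir-218, mir-138, mir-9, mir-132, mir-132b, mir-124 and mir-219, and each exceeded the next in 3 of 3 libraries. Neighbours did not overlap in CPM over the libraries, except mir-9 and mir-132. For these the ratio was 1.04, 1.61 and 1.72, a mean log2 ratio of 0.51 ± 0.40 (SD, n = 3), and in library 1 their counting intervals overlapped widely. The counting intervals of mir-124 (2.28 to 5.91 CPM) and mir-219 (0.955 to 3.66 CPM) also overlapped in library 1. The step from mir-218 to mir-138 was small but even, at a log2 ratio of 0.40 ± 0.11, and that from mir-128 to mir-218 was 3.07 ± 0.54. No p is given for these steps, because the exact permutation test that flips signs over 3 libraries reaches a two-sided p of 0.25 at best. A ratio between different miRNAs also carries the bias of ligation, which captures some sequences better than others.

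Set against mir-124, the other neuronal miRNAs were in excess in every library. mir-128 had 272 (174 to 451), 373 (280 to 510) and 990 (653 to 1579) counts for each count of mir-124. mir-218 had 49.5 (31.5 to 82.5), 37.2 (27.7 to 50.9) and 91.8 (60.5 to 147), and mir-138 had 35.9 (22.8 to 60.0), 26.9 (20.1 to 37.0) and 76.0 (50.1 to 122). mir-9 had 10.8 (6.77 to 18.4), 13.1 (9.71 to 18.1) and 26.5 (17.3 to 42.5) counts per count of mir-124. Library 3 had the highest ratio for each of these 4 miRNAs, and in library 3 mir-124 itself was lowest.

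The ratio to mir-124 was 10.5 (6.53 to 17.8), 8.15 (5.99 to 11.3) and 15.4 (9.98 to 24.8) for mir-132. It was 4.95 (3.00 to 8.58), 4.15 (3.00 to 5.86) and 8 (5.12 to 13.1) for mir-132b. The glial mir-338 had 1000.1 (640.2 to 1662), 1062 (796 to 1451) and 1895 (1251 to 3024) counts per count of mir-124. mir-219 was the only one of the 8 below mir-124, at 0.526 (0.219 to 1.19), 0.174 (0.0709 to 0.372) and 0.0909 (0.0104 to 0.370), and its interval included 1 in library 1. Unlike the 7 others, mir-219 had its lowest ratio in library 3.

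**Figure D2:**
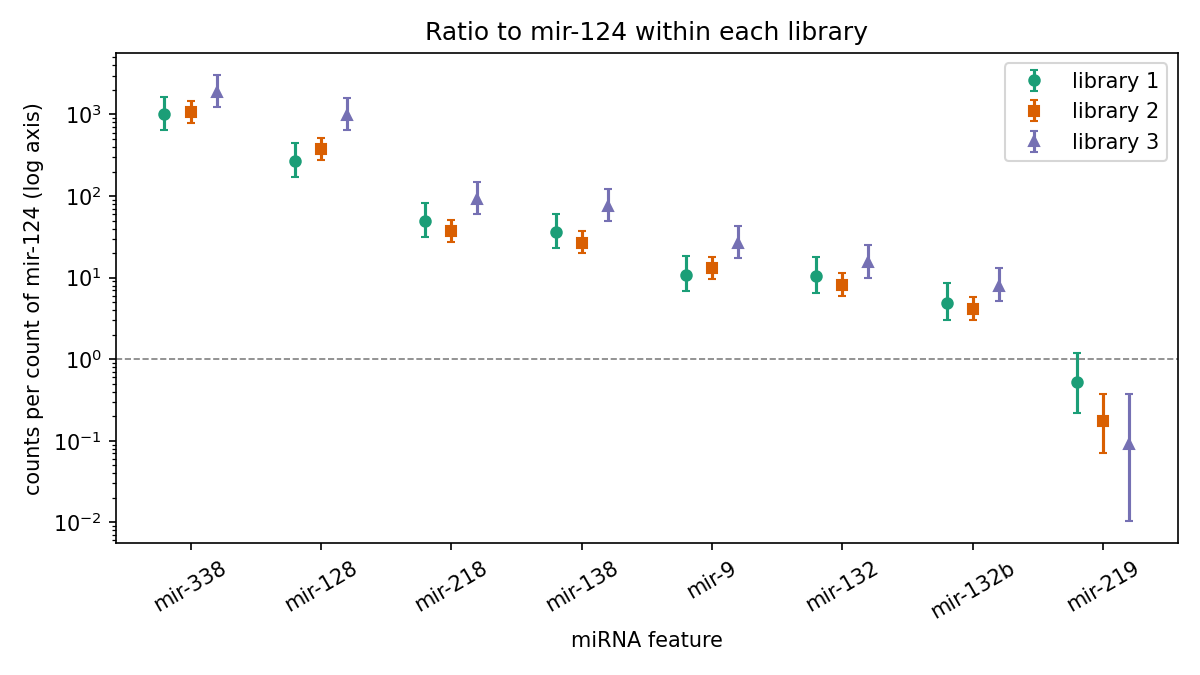
Counts of each miRNA per count of mir-124 within each library on a log axis, with 95% exact binomial intervals as bars and a dashed line at 1. Library 3 (triangles) lies highest for the 7 miRNAs above the line, and mir-219, at 0.0909 to 0.526, lies below it.

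A chi-square test asked for each feature whether its ratio to mir-124 differed between libraries by more than counting error. Benjamini-Hochberg adjustment was over the 157 features other than mir-124 whose mean count reached 10. The test compares these libraries, not conditions. Every test used the same mir-124 counts (19, 46 and 22), so the calls are not independent of each other. Of all features, 76.4% passed at an adjusted p under 0.05, and of the 7 miRNAs tested 4 did. These were mir-128 (adjusted p = 4.87e-05), mir-138 (0.000477), mir-218 (0.00346) and mir-9 (0.0129). mir-338 (0.0619), mir-132 (0.0731) and mir-132b (0.0731) did not pass, though their ratios also spanned 1.89-fold, 1.88-fold and 1.93-fold. The calls rest on library 3: without it 0 of the 7 passed, against 34 of all 157 features. At an unadjusted p under 0.05 these counts were 0 and 51. Without library 1 all 7 passed, against 110 of all 157 features, and without library 2 the counts were 3 and 71. mir-219, with a mean of 6.67 counts, was not tested.

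Levels themselves also differed between libraries. After scaling by the trimmed mean of M-values (TMM), the chi-square test with Benjamini-Hochberg adjustment over 158 features called 7 of the 8 miRNAs tested, against 81.6% of all features, so this share is close to that of the whole table. With the test limited to features whose mean count reached 100, it called 6 of 7, against 95.7% of 115 features. mir-338 varied 1.43-fold from its lowest to its highest library and mir-128 1.93-fold, both with adjusted p-values below what double precision can hold. mir-9 varied 1.63-fold (adjusted p = 1.92e-09), mir-132 1.35-fold (0.000236), mir-124 2.54-fold (0.00137), mir-138 1.12-fold (0.00549) and mir-132b 1.32-fold (0.0361).

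mir-218 did not pass (adjusted p = 0.72). Its TMM-scaled levels were 199, 202 and 196 CPM, a 1.03-fold span. It passed with library totals alone (adjusted p = 0.0131), where the span was 1.13-fold and library 3 was highest. The call of mir-132b was lost with DESeq2 size factors (adjusted p = 0.0966), with library totals (0.15) and with no filter on counts (0.0541). With no filter mir-219 was also tested and passed (adjusted p = 0.00178), at only 10, 8 and 2 counts, against 53.8% of the 266 features tested.

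Several of these calls turned on 1 library. Without library 2, 4 of the 8 passed, against 107 of all 158 features, and mir-338 (adjusted p = 0.585), mir-132b (0.286) and mir-124 (0.0571) no longer did. Without library 3, 3 passed, against 104 of all 158 features, and mir-138 (0.232), mir-132 (0.787), mir-132b (0.751) and mir-124 (0.476) no longer did. mir-128 and mir-9 passed under each library left out.

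The spans can be set beside those of the whole table. Of the 7 miRNAs whose mean count reached 100, 0 varied more than 2-fold between libraries after TMM scaling, against 46.1% of the 115 features at that level. With DESeq2 size factors 0 of the 7 did, against 40.9%, and with library totals mir-128 did, at 2.21-fold, against 45.2%. Their median span was 1.35-fold, from 1.03-fold for mir-218 to 1.93-fold for mir-128, against a median of 1.92-fold over the 115 features. Only mir-128 of the 7 lay above that median. The filter left out mir-124 and mir-219, which have few counts and varied 2.54-fold and 10.9-fold after TMM scaling.

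The 9 did not move as 1 block. After TMM scaling 5 of the 7 were highest in library 2, against 41.7% of the 115 features; with DESeq2 size factors 3 of 7 were, against 36.5%, and with library totals 4 of 7, against 41.7%. mir-338, mir-9 and mir-132b were highest in library 2 under all 3 scalings, as was mir-124. mir-128 and mir-138 were highest in library 3 under all 3. mir-132 was highest in library 1 with DESeq2 factors and mir-218 was highest in a different library under each scaling. mir-132, mir-132b, mir-124 and mir-219 were lowest in library 3 under all 3 scalings, and mir-128 and mir-9 were lowest in library 1.

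**Figure D3:**
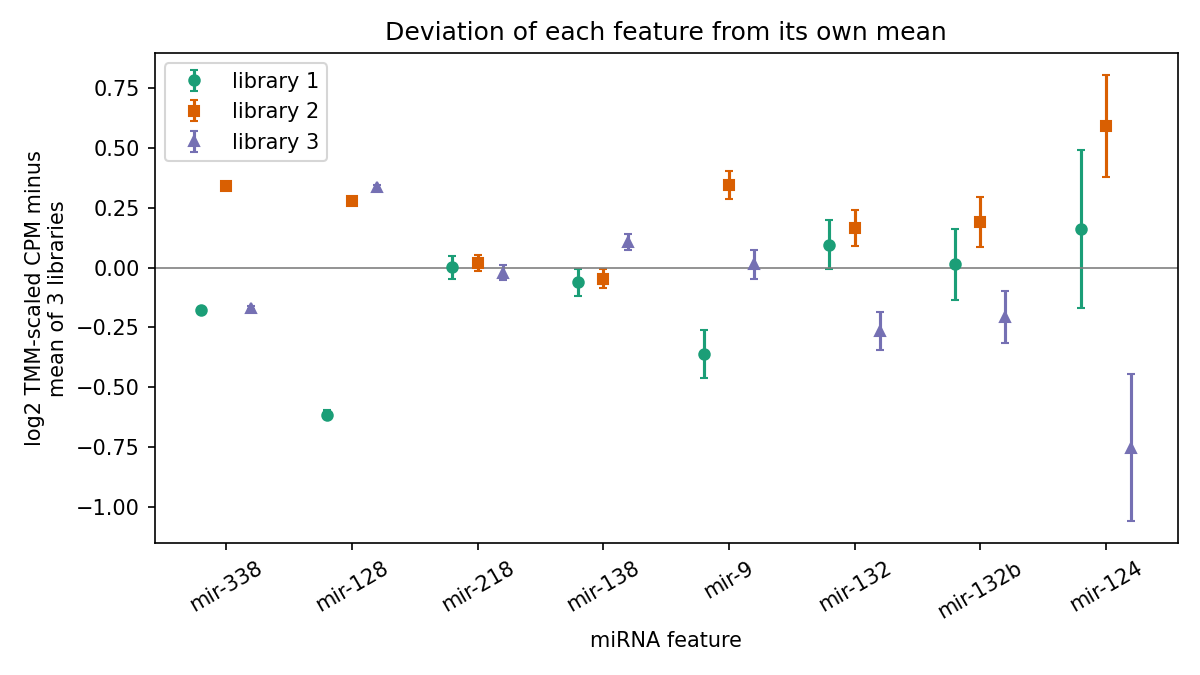
Log2 TMM-scaled CPM of each miRNA minus its own mean over the 3 libraries, 1 point per library, with bars of 1 counting SD. mir-128 is low in library 1 (-0.61) and high in library 3 (0.34), mir-124 is high in library 2 (0.59) and low in library 3 (-0.75), and mir-218 stays within 0.02 of its mean. mir-219 (1.54, 0.37 and -1.91) is left out for its few counts.

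How far 2 miRNAs moved together was measured as the SD over the 3 libraries of their log2 ratio, which needs no scaling and is small when both shift alike. The 21 pairs of the 7 miRNAs whose mean count reached 100 had a median SD of 0.32, from 0.07 to 0.66, and the 6555 pairs of the 115 features had a median of 0.72. Features that vary little give small values against each other, so this follows from the narrow spans above to an extent that was not computed. The lower median alone does not show that the 7 moved together. The tightest pairs were mir-132 with mir-132b (SD 0.07, counting error alone about 0.15) and mir-218 with mir-138 (0.11, counting error about 0.06). mir-338 kept an even ratio to mir-9 (0.18) and mir-132b (0.18), and a less even one to mir-128 (0.48). The widest of the 21 pairs was mir-128 with mir-132 (0.66), and the 5 widest all included mir-128.

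Pairs with mir-124, leaving out mir-219, ranged from 0.45 with mir-132 to 0.97 with mir-128, beside a counting error of about 0.30 and 0.29. Pairs of mir-219 ranged from 1.16 with mir-124 to 2.07 with mir-128, beside a counting error of 0.77 and 0.71. mir-338 and mir-219, the glial pair, had an SD of 1.60.

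**Figure D4:**
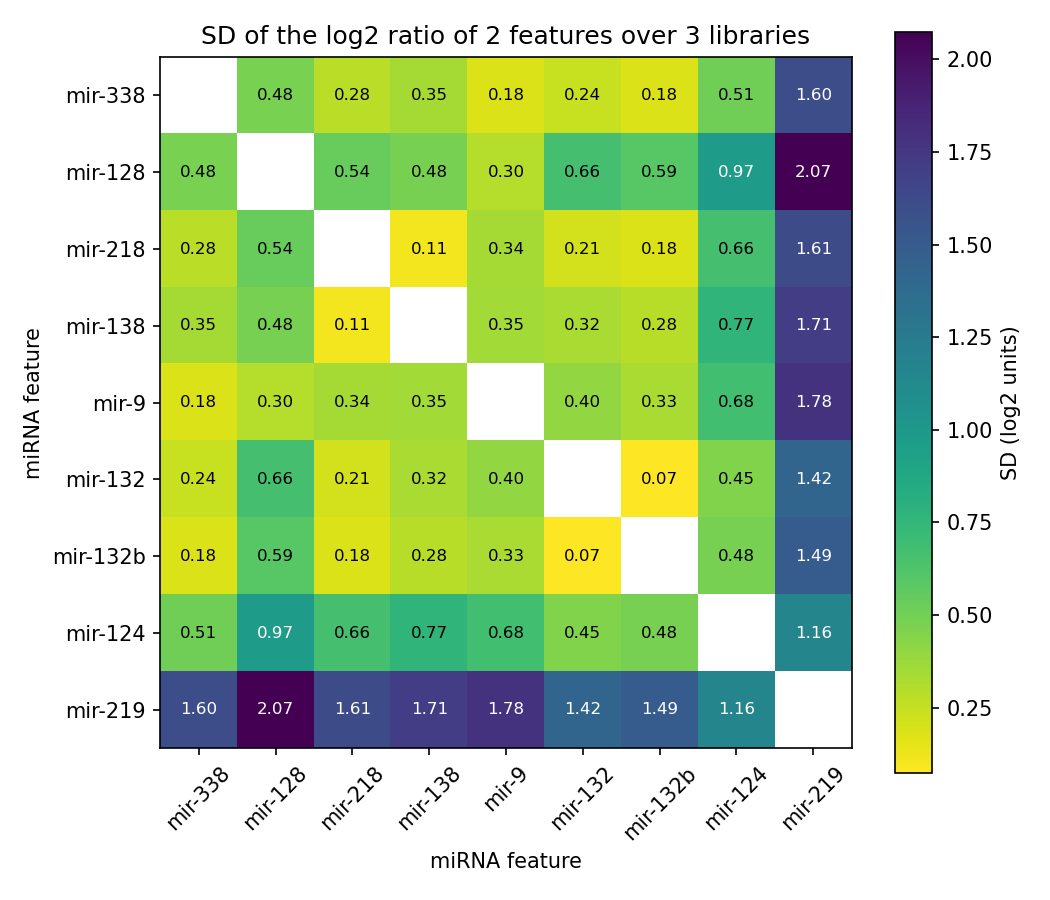
SD over the 3 libraries of the log2 ratio (pseudocount 0.5) of each pair of the 9 miRNAs, as numbers and colours. The lowest value is that of mir-132 with mir-132b (0.07), and the row of mir-219, with few counts, is the highest (1.16 to 2.07).

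The features most like each miRNA by this measure, among 114 others whose mean count reached 100, included another of the 9 only for mir-132. For mir-338 they were mir-31 (SD 0.12), lin-4 (0.12), the worm name of the miR-125 family, and mir-214 (0.13). For mir-128 they were mir-454 (0.08), mir-29 (0.21) and mir-1388 (0.25). For mir-218 they were mir-103 (0.03), mir-3179 (0.04) and mir-130 (0.08), and for mir-138 mir-26 (0.04), mir-883 (0.04) and the epidermal mir-205 (0.05). For mir-9 they were mir-15 (0.06), lin-4 (0.09) and mir-3596 (0.11). For mir-132 they were mir-132b (0.07), mir-458 (0.10) and lsy-6 (0.10), a name from nematodes, and for mir-132b mir-16 (0.04), mir-214 (0.06) and mir-23 (0.06). In pairs with mir-338, counting error alone was about 0.12 for mir-132b, 0.09 for mir-132 and 0.08 for mir-9. The SDs listed for mir-132b lie below its value, and those for mir-132 and mir-9 lie near theirs. With 3 libraries and so many candidates a small SD is easily found, so these are descriptions.

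Of 18 further miRNA numbers known from brain or neurons, 7 had a feature in the table, and all 7 had at least 1 count. Together they took 0.0144%, 0.0147% and 0.0130% of counts. mir-153, which lies in introns of the neuroendocrine genes PTPRN and PTPRN2 in mammals, led at 69.9, 93.5 and 86.1 CPM, 1.70, 1.33 and 1.42 times mir-9. mir-137, which shapes neuronal maturation, had 26, 145 and 60 counts, and like mir-124 was highest in library 2, at 1.37 (0.729 to 2.62), 3.15 (2.25 to 4.49) and 2.73 (1.65 to 4.67) times its counts. mir-135 had 46.4, 16.0 and 16.7 CPM and mir-129 had 15.1, 10.1 and 13.5 CPM, both highest in library 1, and mir-7, known from neuroendocrine cells, had 6.57, 9.95 and 7.30 CPM. mir-149 had 1, 2 and 3 counts and mir-598 had 1, 0 and 0. The 5 whose mean count reached 10 all differed between libraries by the chi-square test, against 81.6% of all features, and no library was highest for all of them.

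Of 4 further numbers known from oligodendrocytes or Schwann cells, 3 had a feature: mir-23 at 2318, 2667 and 2394 CPM, mir-29, which targets collagen transcripts and the myelin gene PMP22, at 672, 1360 and 1181 CPM, and mir-34 at 21.9, 16.1 and 17.3 CPM. All 3 differed between libraries by the same test, against 81.6% of all features. mir-338 exceeded mir-23, the most abundant of them, 1.63-fold, 2.14-fold and 1.82-fold. These miRNAs are also made by many other cells.

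The summed shares of miRNAs known from other cell types also differed between the libraries. Under all 3 scalings mir-338, mir-9, mir-132b and mir-124 were highest in library 2. Library 2 also held the most erythroid (0.113%, 0.226% and 0.0509%), leukocyte (0.166%, 0.345% and 0.169%), mesenchymal (1.92%, 2.71% and 1.89%) and pigment cell (16.2%, 19.1% and 11.8%) miRNAs. These lists were led by mir-451, mir-142, mir-199 and mir-204. Some features, named here after their values were seen, did not follow their list: the smooth muscle mir-143 (5485, 3297 and 3843 CPM) and mir-145 (3507, 1102 and 1607 CPM) were lowest in library 2, and the leukocyte mir-155 (72.7, 91.6 and 118 CPM) was highest in library 3. The pigment cell list held mir-204 alone, the most abundant feature of the table, and which cells made it was not tested. The gonad and embryo list, led by mir-202, was also highest in library 2 (0.00173%, 0.0324% and 0.000459%). Its other feature, mir-430, was instead highest in library 3 (0.199, 0.819 and 1.46 CPM). Library 2 held the least striated muscle (1.64%, 0.667% and 2.23%), gut, liver and endocrine (0.525%, 0.113% and 0.586%) and sensory organ (0.123%, 0.0849% and 0.114%) miRNAs, led by mir-133, mir-192 and mir-182. In the sensory organ list, mir-96 (1.59, 1.76 and 3.02 CPM) and mir-96a (1.39, 2.11 and 2.50 CPM), with few counts, were instead lowest in library 1. The epidermis list, led by mir-205, was highest in library 3 (5.99%, 6.75% and 8.23%), as mir-128 and mir-138 were. The endothelial mir-126 was highest in library 1 (0.487%, 0.415% and 0.312%), as was mir-219, which had few counts. No feature of these lists was at 0 in all libraries, against 17.9% of all features. The part of these lists in the shifts of the neural and glial miRNAs was not tested.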

How the data were processed

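Per the labels' protocols, Illumina's TruSeq kit for small RNA was used on total RNA. The authors deposited 1 table of raw counts of reads, whole numbers for each miRNA name and library, with no normalization or pooling. Tools listed in the submitters' processing notes are BWA 0.7.12-r1039, SAMtools 1.3.1-9, Trimmomatic 0.36 and bcl2fastq 1.8.4. For genome build, miRNA annotation and reads with several matches, the choice made is not given in the sources used here. Names carry no arm and may pool genomic copies of a miRNA. Since 0 of the 9 names occur in the RefSeq gene table used, coordinates are not printed.

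CPM, shares and ratios were computed from the deposited counts. TMM factors (edgeR 4.0.16, R 4.3.3) were 0.940, 0.991 and 1.07. Chi-square tests were run on the 3 counts of a feature against total times factor, and on its ratio to mir-124. Both used features whose mean count reached 10, the second without mir-124 itself, and Benjamini-Hochberg adjustment over all of them. The first was also run on simulated counts. These held counting error only, so they cannot show how the test acts on counts that vary more. Both tests allow for counting error only, not for variation between fish. Joint change used a pseudocount of 0.5. Features were named by a rule: the 9 members, the listed neural and glial miRNAs, the 3 features nearest to each member, and the leading feature of each list for another cell type. Outside this rule, mir-143, mir-145, mir-155, mir-430, mir-96 and mir-96a were named because they did not follow their lists. The members and lists were chosen with earlier results of these data known. Alternatives were DESeq2 1.42.0 size factors, library totals, other filters, pseudocounts and denominators, and each library left out. Tests ran in scipy 1.17.1 under Python 3.11.15.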

Additional observations from a re-analysis of the deposited data

How the results depend on the processing

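No paired analysis was possible because there is 1 group and nothing to pair. The summed share of the 9 miRNAs was 0.224% without mir-338, against 0.686%, and 0.618% to 0.767% with each library left out, while the other denominators moved it by less than its SD. With each library left out, 3 to 7 of the 8 miRNAs tested differed in level (104 to 121 of all 158 features), and 0 to 7 of 7 differed in their ratio to mir-124, lowest without library 3 in both. Over all 157 features the latter count fell from 120 to 110 without library 1, to 71 without library 2 and to 34 without library 3. Detection ranged from 7 to 9 miRNAs, within 1.5 times the 8 of the main rule. The 7 were those with at least 10 CPM in every library, met by 34.3% of all features and 44.7% of those with a miRNA name. The log2 ratios to mir-124 kept within their spread under every alternative run. With 1 of 3 libraries left out this was bound to hold, since a mean then always moves by less than the SD. The only other alternative, a pseudocount of 1, also moved them by less. The median SD of pairs also kept within its spread, but was rerun only with a pseudocount of 5. So did the median span, rerun only with DESeq2 size factors and library totals. Neither was rerun with a library left out. Relative to library totals, TMM scaling shifted all levels by a log2 factor of 0.09, 0.01 and -0.10, and DESeq2 factors by 0.16, -0.07 and -0.10, which decides the highest library of mir-218 and mir-132. mir-219 and mir-124, with 2 to 46 counts, are limited by depth.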
